A study of Mus musculus with 7 samples.

Results

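The proteasome is the protease complex that degrades proteins tagged with ubiquitin, and its subunits are encoded by the Psm genes. Members were every single-symbol row of the authors' deposited table whose name begins with Psma, Psmb, Psmc, Psmd, Psme, Psmf or Psmg followed by a digit, with no use of measured values. This gave 49 of 23358 gene rows. Of these, 48 were tested by the authors and reached 1 FPKM or more in at least 1 group (FPKM counts fragments relative to transcript length and to library size), and Psmb11 was not. Psmc3ip matches by name alone, since it encodes a partner protein of meiotic recombination factors and not a proteasome subunit. The immunoproteasome genes Psmb8, Psmb9 and Psmb10 were treated apart from the 46 other members, called standard here.

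The libraries came from C57Bl6 mouse embryos at E14.5, from brain cells that the labels call endothelial, sorted on the TdTomato protein that the Ai14 reporter allele makes after recombination. There were 3 libraries from controls and 4 from embryos labelled Tgfbr2-deficient, Tgfbr2 being a receptor for transforming growth factor β, each from 2000 to 5000 sorted cells. The sources used here give neither the Cre driver, nor the deleted exons, nor whether the controls carried Cre. They also do not say that the libraries of a group were separate embryos, so a q-value covers only library-to-library spread, possibly technical. The table gives 1 FPKM value per gene and group, so no value per library, spread or depth could be shown, and the authors' Cuffdiff q-value (the p-value adjusted over all tested genes) is the only error measure. Where 2 FPKM values stand together, the control group comes first and the Tgfbr2-deficient group second.

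The check of the labels and of the cell type bears on every value that follows. Tgfbr2 itself was at 91.1 and 65.4 FPKM, which did not pass in the authors' deposited table (log2 fold −0.48, q = 0.0953). All 21 tested microglia and macrophage markers were present in both groups, from 38.9 to 2432 FPKM in the control group and from 23.2 to 1083 FPKM in the Tgfbr2-deficient group, and their summed level was 15074 and 7148 FPKM. The 20 endothelial markers summed to 122 and 679.5 FPKM, so the macrophage sum was the larger in both groups. Summed markers of fibroblasts (137 and 1132 FPKM), pericytes (17.1 and 118 FPKM) and neurons (152 and 378 FPKM) were also higher, as were those of mast cells, platelets and granulocytes (15.4 and 484 FPKM), in the Tgfbr2-deficient group. Of the macrophage markers 19 were lower in the Tgfbr2-deficient group and 0 higher, and of the endothelial markers 19 were higher and 0 lower, at q under 0.05 in the authors' deposited table and equally at an unadjusted p under 0.05. In such bulk libraries fewer cells of a type and less RNA per cell cannot be told apart.

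As background, the core particle is a barrel of stacked rings. The outer rings hold alpha subunits that gate the channel and the inner rings hold beta subunits, of which Psmb5, Psmb6 and Psmb7 carry the proteolytic sites. A regulatory particle on the end of the barrel recognises ubiquitin, removes it and unfolds the substrate with a ring of ATPases. Interferon induces Psmb8, Psmb9 and Psmb10, which replace Psmb5, Psmb6 and Psmb7 in newly built particles, and the activator subunits Psme1 and Psme2, and cells of the hematopoietic lineage such as macrophages express these genes without stimulation. The transcription factor NFE2L1 raises the standard subunit genes when proteasome activity is short.

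Because the immunoproteasome genes and their standard counterparts differed in fold, their RefSeq promoter windows (GRCm38.p6, the assembly of mm10) and that of Psme1 are shown where the table of promoters holds them, with the regulatory motifs found in them in capitals. Each runs 5′ to 3′ on the gene's own strand, from 250 bases before the start of transcription to 25 bases after it.
Psmb8 (chr17:34197945-34198219, plus strand): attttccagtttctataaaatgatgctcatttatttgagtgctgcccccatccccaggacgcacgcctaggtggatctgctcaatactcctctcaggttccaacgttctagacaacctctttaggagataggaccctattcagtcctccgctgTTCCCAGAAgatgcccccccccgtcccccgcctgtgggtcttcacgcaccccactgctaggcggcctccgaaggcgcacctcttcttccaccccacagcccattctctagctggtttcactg
Psmb9 (chr17:34187306-34187580, minus strand): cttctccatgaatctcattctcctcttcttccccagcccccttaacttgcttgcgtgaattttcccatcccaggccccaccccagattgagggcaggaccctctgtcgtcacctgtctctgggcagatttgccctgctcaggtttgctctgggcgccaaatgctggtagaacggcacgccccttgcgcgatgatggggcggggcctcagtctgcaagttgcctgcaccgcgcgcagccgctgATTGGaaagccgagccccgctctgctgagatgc
Psmb10 (chr8:105938368-105938642, minus strand): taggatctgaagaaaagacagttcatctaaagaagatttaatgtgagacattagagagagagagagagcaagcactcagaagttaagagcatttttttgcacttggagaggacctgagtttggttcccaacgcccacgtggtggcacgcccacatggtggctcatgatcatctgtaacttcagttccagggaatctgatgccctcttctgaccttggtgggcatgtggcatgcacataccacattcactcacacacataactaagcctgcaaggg
Psme1 (chr14:55578244-55578518, plus strand): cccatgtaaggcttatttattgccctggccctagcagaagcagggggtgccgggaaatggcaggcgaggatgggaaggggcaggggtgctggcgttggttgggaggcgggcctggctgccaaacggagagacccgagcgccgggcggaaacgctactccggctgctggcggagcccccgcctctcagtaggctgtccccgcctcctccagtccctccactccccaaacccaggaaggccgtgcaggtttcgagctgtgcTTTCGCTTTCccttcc
Psmb5 (chr14:54617971-54618245, minus strand): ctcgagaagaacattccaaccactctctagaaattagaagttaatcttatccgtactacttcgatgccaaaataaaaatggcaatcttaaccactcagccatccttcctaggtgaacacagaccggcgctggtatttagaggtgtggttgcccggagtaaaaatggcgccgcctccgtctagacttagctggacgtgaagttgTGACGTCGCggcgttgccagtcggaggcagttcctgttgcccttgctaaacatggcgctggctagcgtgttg
Psmb6 (chr11:70525107-70525381, plus strand): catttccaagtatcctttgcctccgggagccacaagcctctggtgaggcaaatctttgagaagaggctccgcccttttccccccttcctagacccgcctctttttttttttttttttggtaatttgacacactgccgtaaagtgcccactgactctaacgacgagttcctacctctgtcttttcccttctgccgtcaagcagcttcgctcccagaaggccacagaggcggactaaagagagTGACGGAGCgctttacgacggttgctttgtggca

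A set of 4 motifs was searched on both strands, and the matches shown do not overlap. The capitals in Psmb8 mark TTCCCAGAA, a match to the interferon-gamma activated site TTCNNNGAA, beginning 97 bases before the start. In Psme1 they mark TTTCGCTTTC, the reverse complement of a match to the interferon-stimulated response element (GAAA, any 2 bases, GAAA), beginning 9 bases after the start. In Psmb5 and Psmb6 they mark TGACGTCGC and TGACGGAGC, matches to the antioxidant response element core TGACNNNGC that NFE2L1 can bind, beginning 47 and 9 bases before the start. In Psmb9 they mark ATTGG, the reverse complement of the CCAAT box, 8 bases before the start, and none of the 4 motifs is spelled out in the Psmb10 window. Over the full windows of 300 bases, the interferon-gamma activated site was found in 3 of 41 member genes with a sequence (Psmb8, Psmd2 and Psmg1) and in 8.30% of all 32851 promoters. The interferon-stimulated response element was found in 5 of 41 members (Psmb3, Psmd4, Psmd9, Psme1 and Psmg4) and in 3.44% of promoters. The antioxidant response element core was found in 6 of 41 members and 12.4% of promoters, and the CCAAT box in 15 of 41 members and 37.4% of promoters. Psme2, whose window is not shown, was not among the members with a match to any of the 4 motifs. Members were counted as genes with a match in any of their windows, whereas the other share counts each of the 32851 promoters, which belong to 27025 genes. The 2 shares are therefore not in like units. A match is a description of letters, and none of these data measured a factor's binding. The windows of Psmb9 and of Tap1, the peptide transporter gene that faces it, share 275 of their 300 bases.

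Most members had lower FPKM in the Tgfbr2-deficient group, a direction that depended on the reference chosen for scaling, and a minority passed the test. Of the 48 tested members 12 fell at a q-value under 0.05 in the authors' deposited table and 0 rose. At an unadjusted Cuffdiff p under 0.05 the counts were 22 lower and 0 higher. By that p, 2726 of all 13356 tested genes were lower and 3472 higher. By q under 0.05, 14.7% of all tested genes were lower and 23.9% higher. The share of members called lower, 25%, is therefore above that of all tested genes, but calls depended on abundance. Among the 1211 other tested genes whose mean FPKM over the 2 groups lay between 48.9 and 129, the middle range that holds 24 of the 48 tested members, 38.2% were lower and 6.36% higher. Of these 1211 genes 597 were lower and 86 higher at an unadjusted Cuffdiff p under 0.05. The median log2 fold in the authors' deposited table was −0.39 for the 45 tested standard members. It was −0.44 for the genes of like level and −0.09 for all tested genes. Folds were below 0 for 46 of 48 members, also when centred on the median of all tested genes, and for 40 of 48 when rescaled to equal summed FPKM. Only 9 of 48 stayed below 0 when folds were centred on the cytoplasmic ribosomal protein genes, which adds 0.54 to every log2 fold. Of those ribosomal protein genes 40 of 80 were lower and 0 higher in the authors' deposited table, and 0 were higher at an unadjusted Cuffdiff p under 0.05. The summed FPKM of all 49 members was 5075 and 3767, or 1.01% and 0.855% of the FPKM over all rows not marked by the authors for too many fragments.

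**Figure D1:**
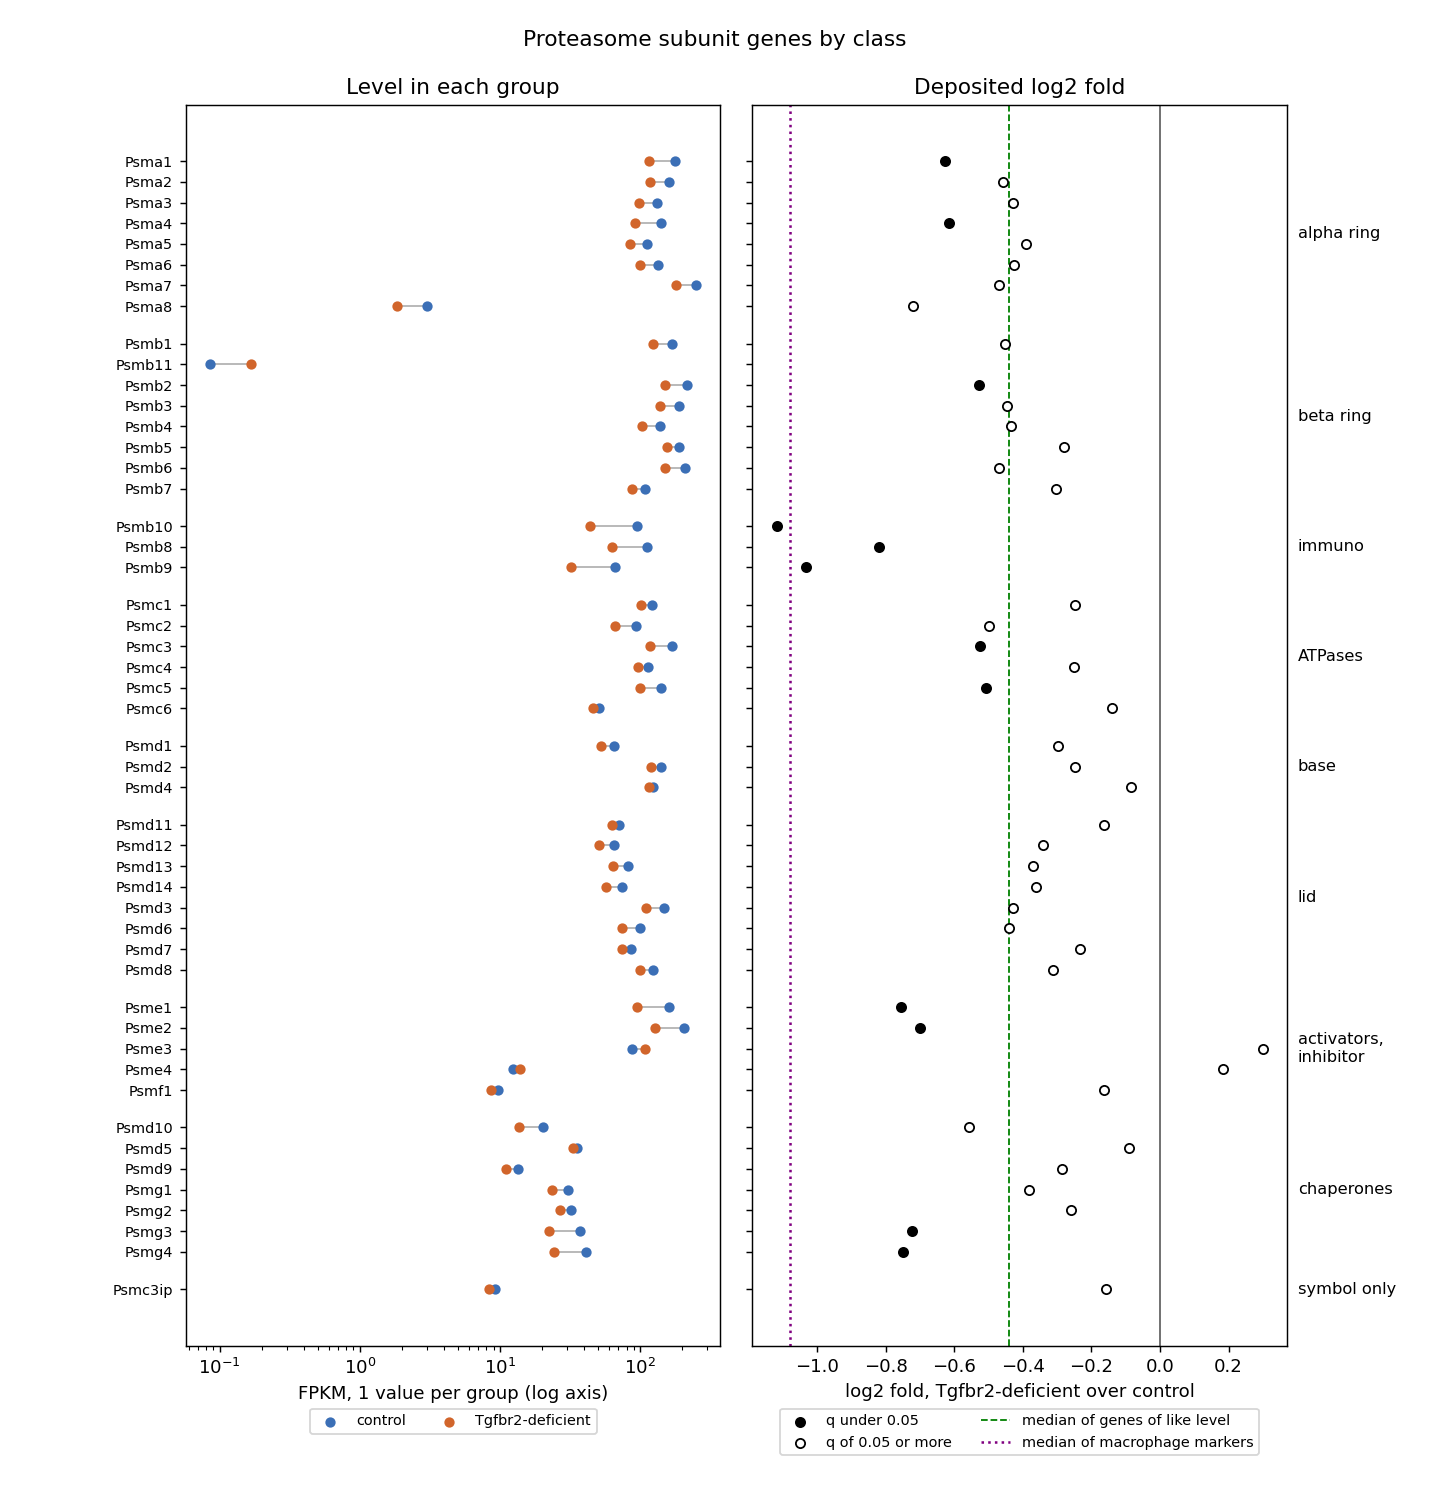
FPKM in each group on a log axis (left, blue control, orange Tgfbr2-deficient, 1 value per group) and log2 fold of the Tgfbr2-deficient over the control group from the authors' deposited table (right), for each member by structural class; black points have q under 0.05, the dashed line is the median of genes of like level (−0.44) and the dotted line that of macrophage markers (−1.08). Psmb8, Psmb9 and Psmb10 lie to the left of every other tested member, and Psme3 and Psme4 alone lie to the right of 0; Psmb11 has no test and no point on the right.

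The immunoproteasome genes had the largest falls among the members, and they remained below 0 under each of the scalings tried. Psmb10, the trypsin-like immunosubunit also called MECL-1, fell from 94.9 to 43.7 FPKM, 46.1% of the control level. In the authors' deposited table its log2 fold was −1.12, with p = 5e-05 and q = 0.00029, the smallest values the table holds. Psmb9, the caspase-like position's immunosubunit LMP2, fell from 65.9 to 32.2 FPKM, 48.9% of the control level, with a deposited log2 fold of −1.03 and the same p and q in the authors' deposited table. Psmb8, the chymotrypsin-like immunosubunit LMP7, fell from 112 to 63.5 FPKM, 56.6% of the control level. Its log2 fold in the authors' deposited table was −0.82, with p = 0.00025 and q = 0.00124. All 3 genes of this class thus passed and 0 rose, and Psmb8 was the most abundant of them in both groups and had the smallest fall.

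These 3 genes lay within the range of abundance used for the genes of like level, in which the median deposited log2 fold was −0.44 and the interquartile range ran from −0.68 to −0.21 in the authors' deposited table. A lower fold than that of Psmb10 was listed for 3.96% of the 1211 like-level genes, than that of Psmb9 for 5.95% and than that of Psmb8 for 15.0%. The macrophage markers, whose median log2 fold was −1.08 in the authors' deposited table, moved in the same direction, with 19 of 21 lower. Their part in the fall of the immunoproteasome genes was not tested. Markers of lymphocytes and dendritic cells, which also express these genes, summed to 13.5 and 29.3 FPKM over the 7 tested. Of these 7 markers 5 were higher (71.4%, against 23.9% of all tested genes) and 0 lower at q under 0.05 in the authors' deposited table. Cd3e, which defines T cells, was listed at 0 and 0.0354 FPKM and was not tested.

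The standard subunits that these genes replace did not pass the threshold. Psmb5, which carries the chymotrypsin-like site, stood at 189 and 156 FPKM (log2 fold −0.28, q = 0.315 in the authors' deposited table). Psmb6, with the caspase-like site, stood at 209.5 and 151 FPKM (log2 fold −0.47, q = 0.0677 in the authors' deposited table). Psmb7, with the trypsin-like site, stood at 109 and 88.0 FPKM (log2 fold −0.30, q = 0.259 in the authors' deposited table). Each immunoproteasome gene thus had a lower fold than its counterpart, by 0.54 for Psmb8 against Psmb5, 0.56 for Psmb9 against Psmb6 and 0.81 for Psmb10 against Psmb7 on the log2 scale. These differences do not depend on how the libraries were scaled, but with 1 value per group they have no test. GENCODE M21 lists the pseudogenes Psmb5-ps, Psmb6-ps, Psmb6-ps2 and Psmb7-ps2, so these levels are uncertain to the extent that reads were shared with the copies.

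Expressed as a share of each pair's FPKM, the immunoproteasome gene was the smaller part in both groups and smaller still in the Tgfbr2-deficient group. FPKM is scaled for transcript length, but other differences between genes in how reads are recovered, and reads shared with pseudogenes, may affect these shares. Psmb8 made up 37.2% of Psmb8 plus Psmb5 in the control group and 29.0% in the Tgfbr2-deficient group. For Psmb9 with Psmb6 the shares were 23.9% and 17.5%, and for Psmb10 with Psmb7 they were 46.6% and 33.2%. Summed over the 3 pairs, the immunoproteasome genes had 273 FPKM against 507 FPKM for their counterparts in the control group, a share of 35.0%. In the Tgfbr2-deficient group the sums were 139 and 395 FPKM, a share of 26.1%. With 1 FPKM added to each gene every one of the 6 pair shares moved by less than 0.5 percentage points. These are shares of RNA, and the make-up of assembled particles was not measured.

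**Figure D2:**
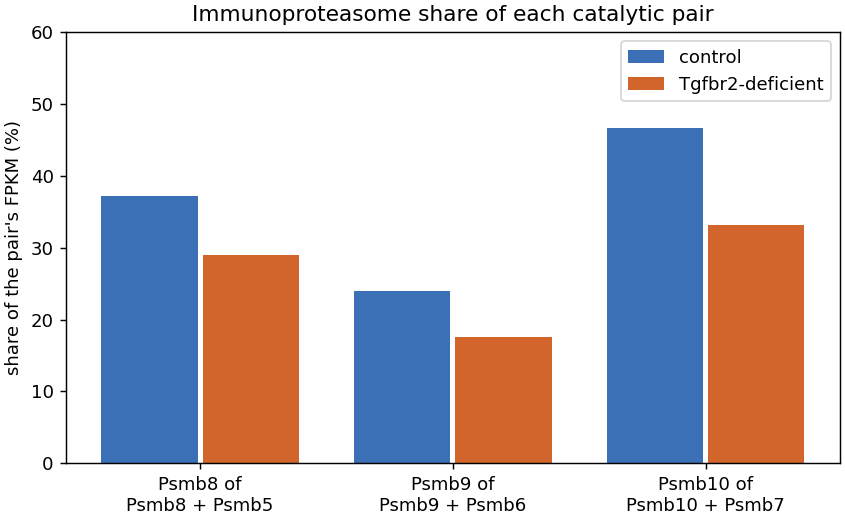
Share of each catalytic pair's summed FPKM that belongs to the immunoproteasome gene, in percent, in the control (blue) and Tgfbr2-deficient (orange) groups; each bar is 1 value per group with no error. The share is lower in the Tgfbr2-deficient group in all 3 pairs, from 46.6% to 33.2% for Psmb10 and from 23.9% to 17.5% for Psmb9.

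Of Psmb1, Psmb2, Psmb3 and Psmb4, the beta subunits without a proteolytic site, 1 passed. Psmb2 fell from 218 to 151 FPKM (log2 fold −0.53, q = 0.0412 in the authors' deposited table), and its fold became 0.015 when centred on ribosomal protein genes. Psmb1 stood at 168 and 123 FPKM, Psmb3 at 189.7 and 139 FPKM and Psmb4 at 139 and 103 FPKM, with q from 0.0814 to 0.0916 in the authors' deposited table. Psmb11, the thymus-specific catalytic subunit found in cortical epithelium, was at 0.0854 and 0.167 FPKM and was not tested. In all, 1 of 7 tested standard beta genes was lower (14.3%, against 14.7% of all tested genes), and the median log2 fold in the authors' deposited table was −0.45.

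The alpha ring genes, which form the gate and the docking surface for activators, gave a median log2 fold of −0.46 in the authors' deposited table. Of these 8 genes 2 were lower (25%, against 14.7% of all tested genes and 38.2% of the genes of like level) and 0 higher. Psma1 fell from 178 to 115 FPKM (log2 fold −0.63, q = 0.0138) and Psma4 from 142 to 92.5 FPKM (log2 fold −0.62, q = 0.0104) in the authors' deposited table. Psma7, the most abundant member in both groups, stood at 251 and 181 FPKM and did not pass (q = 0.0709 in the authors' deposited table). Psma2 stood at 161 and 117 FPKM, Psma3 at 133 and 98.6 FPKM, Psma5 at 112 and 85.2 FPKM and Psma6 at 133 and 99.1 FPKM, with q between 0.0737 and 0.272 in the authors' deposited table. The row of Psma6 overlaps those of Nfkbia and Ppp2r3c, from which its reads may not be fully separate because the library kits do not mark strand. The same holds for Psma3 (3110056K07Rik) and Psma4 (AY074887), and in other classes for Psmb5 (Mir686), Psmd1 (Htr2b) and Psmc3ip (Mlx). Psma8, the form of this ring's subunit that replaces Psma7 in testis, was at 3.01 and 1.83 FPKM and did not pass (q = 0.117 in the authors' deposited table).

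Within the core particle each subunit occurs in equal number, and the RNA levels were of one order. Leaving out Psma8 and the immunoproteasome genes, the 14 ring genes at 1 FPKM or more spanned 109 to 251 FPKM in the control group, a 2.31-fold range, and 85.2 to 181 FPKM in the Tgfbr2-deficient group, a 2.13-fold range. The order of levels was largely kept, with a Spearman correlation of 0.95 between the groups over all 48 tested members, given as a description because the points share the same libraries. Log2 folds were lower for the more abundant members (Spearman −0.33 over 48 members between control level and fold), which share the control value on both axes.

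The regulatory particle genes were at lower levels than the rings and 2 of 17 passed, both lower (11.8%, against 14.7% of all tested genes). Their median level was 100.1 and 73.9 FPKM, against 165 and 116 FPKM for the 14 ring genes. Among the 6 ATPases, which unfold substrates, Psmc3 fell from 169 to 117 FPKM (log2 fold −0.52, q = 0.0494 in the authors' deposited table). Psmc5 fell from 142 to 99.7 FPKM (log2 fold −0.51, q = 0.0493 in the authors' deposited table). Both lie just under the threshold, and their folds became 0.019 and 0.036 when centred on ribosomal protein genes. Psmc2, at 93.6 and 66.2 FPKM, lay just above the threshold (q = 0.0532 in the authors' deposited table). Psmc1 stood at 121 and 102 FPKM, Psmc4 at 114 and 96.0 FPKM and Psmc6 at 50.7 and 46.0 FPKM, none of which passed.

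None of the 3 non-ATPase base genes or the 8 lid genes passed Cuffdiff's test, against 14.7% of all tested genes lower and 23.9% higher. At an unadjusted Cuffdiff p under 0.05 the count was 0 of 3 for the non-ATPase base and 1 of 8 for the lid. By that p, 2726 of all 13356 tested genes were lower and 3472 higher. Besides the ATPases, the base includes the ubiquitin receptor Psmd4, at 124 and 117 FPKM, and the scaffolds Psmd1, at 65.1 and 52.9 FPKM, and Psmd2, at 141 and 119 FPKM. Psmd4 had the fold nearest to 0 among all members (−0.08, q = 0.785 in the authors' deposited table). The lid holds Psmd14, the enzyme that cuts ubiquitin chains from substrates, at 73.8 and 57.4 FPKM (q = 0.174 in the authors' deposited table). Its other genes were Psmd3 at 148 and 110.1 FPKM, Psmd6 at 100.1 and 73.9 FPKM, Psmd7 at 86.7 and 73.8 FPKM and Psmd8 at 124 and 99.5 FPKM. Psmd11, known for its high level in human embryonic stem cells, stood at 70.4 and 62.8 FPKM, Psmd12 at 65.0 and 51.3 FPKM and Psmd13 at 82.5 and 63.8 FPKM. The lid's median log2 fold was −0.35 and that of the non-ATPase base genes −0.25 in the authors' deposited table. Both were nearer to 0 than the −0.44 of like-level genes.

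Of the activator and inhibitor genes 2 of 5 passed, both lower (40%, against 14.7% of all tested genes and 38.2% of the genes of the members' abundance). Psme1 and Psme2, which form the interferon-induced cap that opens the core particle, fell from 162 to 95.8 FPKM and from 207 to 128 FPKM. In the authors' deposited table Psme1 had a log2 fold of −0.75 with q = 0.00124, and Psme2 of −0.70 with q = 0.00428. Psme3, the related nuclear activator that interferon does not induce, had the highest fold of the 48 tested members, at 87.6 and 108 FPKM (log2 fold 0.30, q = 0.284 in the authors' deposited table). Psme4, a large single-chain activator, stood at 12.3 and 14.0 FPKM (log2 fold 0.18, q = 0.516 in the authors' deposited table), and Psmf1, an inhibitor of the core particle, at 9.69 and 8.64 FPKM (log2 fold −0.16, q = 0.599 in the authors' deposited table). Apart from the immunoproteasome genes, Psme1 and Psme2 were the only members with q under 0.01. Mouse also has Psme2b, an intronless copy of Psme2 that was not analysed here, so the level of Psme2 is uncertain to the extent that they share reads. The row of Psme1 overlaps that of Emc9.

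Among assembly chaperones 2 of 7 passed, both lower (28.6%, against 14.7% of all tested genes). Psmg3 and Psmg4, which pair to help the alpha ring form, fell from 37.2 to 22.5 FPKM and from 41.1 to 24.4 FPKM. In the authors' deposited table their log2 folds were −0.72 (q = 0.0175) and −0.75 (q = 0.0441). Psmg1 and Psmg2, the other alpha-ring pair, stood at 30.8 and 23.6 FPKM and at 32.3 and 27.0 FPKM (q = 0.21 and 0.392 in the authors' deposited table). The chaperones of the ATPase ring were Psmd5 at 35.4 and 33.2 FPKM, Psmd9 at 13.4 and 11.01 FPKM and Psmd10 at 20.2 and 13.7 FPKM, the last with the lowest q of these (0.0632 in the authors' deposited table). Psmc3ip, which is no subunit, stood at 9.29 and 8.33 FPKM (q = 0.836 in the authors' deposited table), and without it the count of lower members was still 12.

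**Figure D3:**
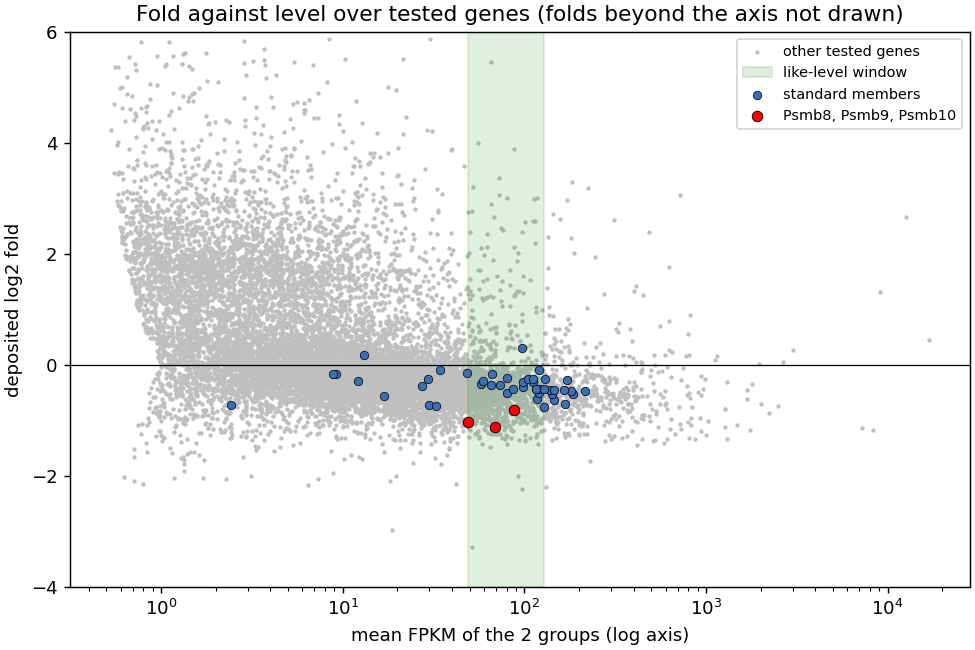
Log2 fold from the authors' deposited table against the mean FPKM of the 2 groups on a log axis, for all tested genes (grey), the 45 tested standard members (blue) and Psmb8, Psmb9 and Psmb10 (red); the green band is the range of abundance from 48.9 to 129 FPKM. The band holds 24 of the 48 tested members, and the other genes in it have a median of −0.44. Lower folds than those of Psmb10, Psmb9 and Psmb8 were listed for 3.96%, 5.95% and 15.0% of these other genes. Genes of low abundance spread upwards, and folds beyond the axis are not drawn.

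In the genome the members lie on 16 chromosomes. The immunoproteasome genes Psmb9 and Psmb8 lie near each other within the major histocompatibility complex on chromosome 17. By the deposited loci in mm10, Psmb9 (ENSMUSG00000096727.3, minus strand) runs from 34182099 to 34187330 and Psmb8 (ENSMUSG00000024338.15, plus strand) from 34198195 to 34201454. Tap1 lies between them, 225 bases from Psmb9 and 969 bases from Psmb8. Tap1 itself fell from 19.5 to 13.4 FPKM (log2 fold −0.54, q = 0.042 in the authors' deposited table). Psmb10 (ENSMUSG00000031897.9) lies on chromosome 8 from 105935728 to 105938392, apart from the other immunoproteasome genes, and had the lowest fold. Psme1 and Psme2 are neighbours on chromosome 14, with 2185 bases between their rows, and Psmb5 and Psmb11 are 7314 bases apart on the same chromosome.

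Companion genes were listed by role and not by how they moved, with earlier results of these data known. Of 8 further proteasome components outside the naming rule 3 were lower (37.5%, against 14.7% of all tested genes and 38.2% of the genes of the members' abundance) and 0 higher. Pomp, the maturation factor of the core particle, fell from 235 to 145 FPKM (q = 0.00584). Shfm1, a small lid subunit, fell from 269 to 166 FPKM (q = 0.0065), and Uchl5, a deubiquitinase of the regulatory particle, from 39.2 to 26.2 FPKM (q = 0.0268), all in the authors' deposited table. The list's median log2 fold of −0.35 in the authors' deposited table was near that of the standard members.

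Few genes of the ubiquitin system and of the companion complexes passed, although most had folds below 0, a direction that centring on ribosomal protein genes reversed for the median of each of these 4 lists. Of 12 ubiquitin genes and shuttle factors 2 were lower (16.7%) and 1 higher (8.33%), against 14.7% and 23.9% of all tested genes. In this list 8 had folds below 0, and the median log2 fold was −0.12 in the authors' deposited table. Ubb, a gene of polyubiquitin, stood at 458 and 789 FPKM and did not pass (q = 0.0603 in the authors' deposited table). Rps27a, which encodes ubiquitin fused to a ribosomal protein, fell from 264 to 158 FPKM (q = 0.00226 in the authors' deposited table). The shuttle factor Ubqln2 rose from 13.5 to 19.9 FPKM (q = 0.0323 in the authors' deposited table). Of 12 genes of Vcp, the segregase that extracts ubiquitin-tagged proteins, and of degradation at the endoplasmic reticulum, 0 passed Cuffdiff's threshold, and 0 had an unadjusted p under 0.05, with 10 folds below 0. Vcp itself stood at 257 and 219 FPKM. The COP9 signalosome, a complex of lid paralogues, had 0 of 9 genes past the threshold and 2 with an unadjusted p under 0.05, both lower, 8 folds below 0, and Cops6 at 145 and 116 FPKM and Gps1 at 97.7 and 75.04 FPKM. Cytosolic chaperones and the chaperonin had 0 of 15, and 1 at an unadjusted p under 0.05, with 13 folds below 0, Hspa8 at 939 and 642 FPKM and Hsp90ab1 at 457 and 417 FPKM.

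Genes tied to interferon and to class I antigen presentation, which act with the immunoproteasome, mostly had folds below 0, but centring on ribosomal protein genes made their medians 0.029 (class I) and 0.12 (interferon). Of 11 class I peptide loading genes 4 were lower and 0 higher, and of 13 genes of interferon control 5 were lower and 1 higher (Jak2, a kinase of the interferon-gamma receptor, from 8.67 to 12.5 FPKM, q = 0.0475), in the authors' deposited table. Folds were below 0 for all 11 loading genes and for 11 of the 13 interferon genes. The shares called lower were 36.4% and 38.5%, against 14.7% of all tested genes and 38.2% of the genes of the members' abundance. Levels in both lists reach beyond that range of abundance, from 9.33 to 981 FPKM and from 1.14 to 200.1 FPKM in the control group. Besides Tap1, the loading chaperone Tapbp fell from 118 to 73.4 FPKM (q = 0.00796), the peptide trimming enzyme Erap1 from 24.0 to 15.2 FPKM (q = 0.00732) and the class I light chain B2m from 981 to 647 FPKM (q = 0.0475) in the authors' deposited table. Ifngr1, the ligand-binding chain of the interferon-gamma receptor, fell from 200.1 to 97.4 FPKM, and Irf8, a transcription factor of macrophages that interferon also induces, from 127 to 69.1 FPKM, both at q = 0.00029 in the authors' deposited table. Ifnar2, of the type I interferon receptor, fell from 139 to 73.4 FPKM (q = 0.00145 in the authors' deposited table). Irf1 and Nlrc5, transcription regulators that interferon induces and that act on class I genes, did not pass. Irf1 stood at 24.6 and 18.2 FPKM (q = 0.108) and Nlrc5 at 1.14 and 1.15 FPKM (q = 0.985) in the authors' deposited table. Macrophage markers moved in the same direction as these genes, with a median log2 fold of −1.08 in the authors' deposited table, and their part was not tested.

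Of the genes tied to transcriptional control of the standard subunits, some partner and target genes rose. Nfe2l1 stood at 30.9 and 35.1 FPKM (q = 0.524) and Nfe2l2, its relative that answers oxidative stress, at 53.9 and 39.0 FPKM (q = 0.0685) in the authors' deposited table. Their relative Nfe2l3, at 0.33 and 0.963 FPKM, was under the minimum of 1 FPKM in both groups and is not counted here (log2 fold 1.54, q = 0.00906 in the authors' deposited table). Of 10 genes tested in this list 5 rose (50%, against 23.9% of all tested genes) and 0 fell, while 1 was lower at an unadjusted p under 0.05. Those that rose are 2 small MAF partners and 3 target genes. Maff, a small MAF partner, rose from 1.26 to 5.95 FPKM and Nqo1, a quinone reductase, from 1.46 to 5.93 FPKM, both near the minimum of 1 FPKM in the control group. Gclm, of glutathione synthesis, rose from 55.3 to 161 FPKM, each of these 3 at q = 0.00029 in the authors' deposited table. Hmox1, which degrades haem, rose from 569.7 to 1065 FPKM (q = 0.0283), and Mafk from 10.98 to 16.3 FPKM (q = 0.0392) in the authors' deposited table. Erythroid markers, sources of haem, summed to 406 and 2389.8 FPKM, a change whose part was not tested.

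**Figure D4:**
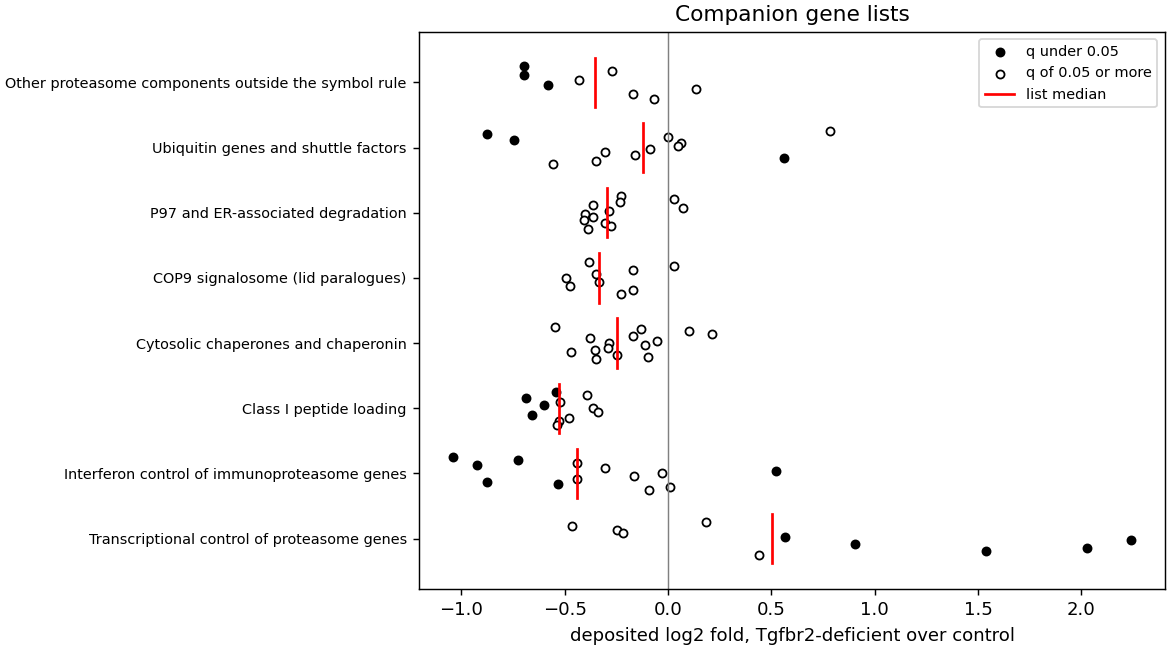
Log2 fold from the authors' deposited table for each tested gene of 8 companion lists (points; black for q under 0.05, open for the rest), with the median of each list as a red line; vertical spread within a list only separates the points. Medians run from −0.53 for class I peptide loading to 0.50 for the list of transcriptional control, in which 5 of 10 genes are higher.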

How the data were processed

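RNA was extracted from sorted cells, amplified with the SMART-Seq v4 kit and tagmented with Nextera XT, per the labels' protocols, and sequenced as single reads of 50 bases, per the labels. TopHat2, Cufflinks 2.2.1, Cuffdiff and build mm10 are named in the submitters' processing notes, while the sources used here give no annotation or options. FPKM values are 1 per group, as deposited by the authors, and 0 columns held values per library, so depth is unknown. The deposited log2 fold has no pseudocount, the deposited test statistic is a score that was not used, and the deposited p-value and q-value are those of the authors' Cuffdiff test. A gene that the authors tested and that reached 1 FPKM in either group was called at q under 0.05. Medians in the closing section use log2(FPKM + 1). Deposited loci start 1 below RefSeq gene starts for 10538 of 21460 shared symbols, so 1 was added to each start. Members, lists and tests were chosen with earlier results of these data known. Every member is given with its values. Of each companion list up to 3 genes with the smallest p past the threshold are named, or the 2 most abundant where none passed, except for some genes that are not reported here. Ubb, B2m, Jak2, Nfe2l3, Irf1, Nlrc5, Nfe2l1, Nfe2l2, Hmox1, Mafk and Cd3e were added after their values were seen. Python 3.11.15 and pandas 2.3.3 were used, and the calling step was tested on simulated data.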

Additional observations from a re-analysis of the deposited data

How the results depend on the processing

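At q under 0.01 the members called lower went from 12 to 5, the standard members from 9 to 2, all tested genes from 1966 to 1026 and the like-level genes from 463 to 284, while all 3 immunoproteasome genes kept their call. When a log2 fold of 1 or more was required as well, the members went to 2 (Psmb9 and Psmb10), the standard members to 0, all tested genes to 368, the like-level genes to 76 and the companion lists with more lower than higher calls from 5 to 1. A minimum of 5 FPKM took the tested genes called higher from 3195 to 1643. No filter on FPKM, recomputed q-values and leaving out rows of several symbols left 12 members called lower, as did leaving out Psmc3ip, chosen after seeing the data like the shares with 1 FPKM added. On log2(FPKM + 1), the standard median of −0.39 became 0.15 when centred on ribosomal protein genes, where 39 of 48 members lay above 0, and the immunoproteasome median of −1.01 became −0.47. Centred on the median of all tested genes, the standard median was −0.31 and the immunoproteasome median −0.93, with 46 of 48 members below 0. Rescaling to equal summed FPKM, chosen after seeing the data, adds 0.19 and made the standard median −0.19 and the immunoproteasome median −0.82, with 8 of 48 members above 0. The gap of −0.62 between both medians was the same under each centring. Taken by class, the activators and inhibitor alone had a median of −0.15. Centring on ribosomal protein genes also reversed Psmb2 (0.015), Psmc3 (0.019) and Psmc5 (0.036), and the medians of the other proteasome components (0.20), ubiquitin genes (0.42), Vcp and degradation genes (0.25), interferon control (0.12), class I loading (0.029), chaperones (0.29) and the COP9 signalosome (0.21), and equal sums the ubiquitin median (0.073). These reversals follow from adding a constant to every fold. No paired analysis was possible because the table has 1 value per group, and for the same reason no library could be left out.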
